A study of Mus musculus with 12 samples.

Results

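The 34 genes described here are those of sugar breakdown and of the response to low oxygen: 16 glycolytic enzymes, 4 transporters of glucose and lactate, 13 targets of the hypoxia-inducible factors (HIF) and Hif1a, which encodes a HIF subunit. They were chosen by symbol, with earlier results of these data known, and each has 1 row among the 23184 gene symbols of the deposited table. The values are TPM (a level corrected for transcript length, scaled so that each library sums to 1000000) from RNA sequencing of HL-1 cells, a mouse line that was grown out of an atrial tumour of heart muscle cells. The 3 groups had 4 libraries each. Control cells (CON, genotype WT) were infected with viruses carrying the empty pCDH and lentiCRISPRv2 vectors. Knockdown cells (KD, genotype WDR62-) received virus with a guide RNA that directs the Cas9 nuclease to Wdr62, a gene for a protein of the centrosome and spindle. Re-expression cells (RE, genotype WDR62+) were KD cells given a further virus, with wild-type WDR62 carrying a flag tag in pCDH. All groups grew in DMEM with fetal bovine serum, and no oxygen treatment is named in the labels. No pCDH vector is stated for KD. Whether the KD cells are 1 clone, and whether replicates are separate cultures, is not stated, so the p-values reflect the spread between these libraries alone, and that spread may be technical.

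Glycolysis turns glucose into pyruvate in the cytosol, and lactate dehydrogenase converts pyruvate to lactate, which leaves the cell through monocarboxylate transporters. When oxygen is low, prolyl hydroxylases no longer mark the HIF alpha subunits for degradation, and HIF bound to its partner ARNT raises transcription of genes that carry its core sequence, A or G followed by CGTG. Many glycolytic enzymes are themselves HIF targets, so the enzyme group and the HIF target group used here differ in role rather than in regulation. HIF1A is controlled mainly at the protein level, which RNA values do not show. Heart muscle cells make most of their ATP from fatty acids and turn to glucose when oxygen falls.

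Wdr62, the targeted gene (chr7:30240138-30280419, minus strand), stood at 7.45, 6.61, 6.50 and 3.38 TPM in CON and fell to 1.40, 0.944, 1.37 and 0.881 TPM in KD (log2 scale, -1.67 ± 0.25, SE; adjusted p = 0.000921). In RE the Wdr62 row stood at 1.47, 0.772, 0.826 and 1.99 TPM, and RE against KD gave 0.05 (adjusted p = 0.895). How the deposited row counts reads of the flag-tagged construct is not known here, so the row does not check the re-expression. In KD and RE the number at the end of the treatment label rises by 1 from library to library, while title, genotype and protocol name a single guide and a single construct. The deposited control columns are named WT, and CON 1 to 4 follow that numbering. In 3 libraries, CON 4, RE 1 and RE 3, long transcripts stood low: the median deviation of the 2268 longest transcripts (5039 bases or more) from their mean over all libraries was -0.83, -0.73 and -1.0 on the log2 scale, against -0.21 to 0.72 in the other 9 libraries. Of the heart muscle markers, 12 of 19 averaged under 1 TPM, and Actc1, Actn2, Myl7 and Myl2 were listed at 0 in all libraries. The heart list summed to 136 to 353 TPM in CON, 214 to 407 in KD and 158 to 250 in RE. Atp2a2 made up most of that sum, with means of 227 TPM in CON, 253 in KD and 131 in RE. The fibroblast list summed to 2753 to 4268 TPM in CON, 2953 to 4252 in KD and 1560 to 2525 in RE, with 3 of 10 members under 1 TPM and Lum and Tcf21 listed at 0. The skeletal muscle list summed to 362 to 655, 292 to 390 and 330 to 550 TPM, with 4 of 9 members in the table under 1 TPM. Des made up most of that sum, and 4 of the 5 tested skeletal markers were called lower in KD against CON (Myod1 6.35 TPM in CON and 0.0313 in KD) and 3 in RE against CON. Of 7 tested fibroblast markers 3 were called lower in KD against CON, 2 in RE against KD and 5 in RE against CON. Of 3 tested macrophage and leukocyte markers 2 were called higher in KD against CON and 1 in RE against CON. Among 7 tested heart muscle markers 1 was called higher in KD against CON and 1 in RE against CON, and none was called lower. For all 11774 tested genes the shares called higher and lower were 6.60% and 3.61% in KD against CON. They were 0.187% and 0.858% in RE against KD, and 2.70% and 3.63% in RE against CON. The macrophage and leukocyte list summed to 134 to 182 TPM in CON, 221 to 253 in KD and 176 to 270 in RE, with Adgre1 listed at 0, and each of the 7 endothelial markers averaged under 1 TPM. The part of these marker levels in the results was not tested. In such bulk samples fewer cells of a type and less RNA per cell cannot be told apart.

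Of the 34 genes, 31 passed the filter of a mean of 1 TPM and were tested on the log2(TPM + 1) scale. In KD against CON 6 of them rose: the enzymes Pfkl, Pfkfb3 and Pgam1 and the HIF targets Pdk1, P4ha1 and P4ha2. The lactate exporter Slc16a3 fell. Over all 11774 tested genes 6.60% were called higher and 3.61% lower. Because the genes were chosen with earlier results of these data known, these shares are given for description and do not test the list. The median log2 fold change of the 31 genes was 0.41, and that of all tested genes was -0.01. Levels in KD and CON did not overlap for 13 of the 31 on the higher side (background 11.9%) and for 1 on the lower side (background 7.02%). The 7 beyond the called ones were Hk1, Gpi1, Tpi1, Slc2a1, Bnip3l, Egln1 and Kdm3a. Without CON 4 the counts were 10 higher and 2 lower (background 9.48% and 11.0%), and without CON 4, RE 1 and RE 3 they were 15 higher and 2 lower (background 14.2% and 25.1%).

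**Figure D1:**
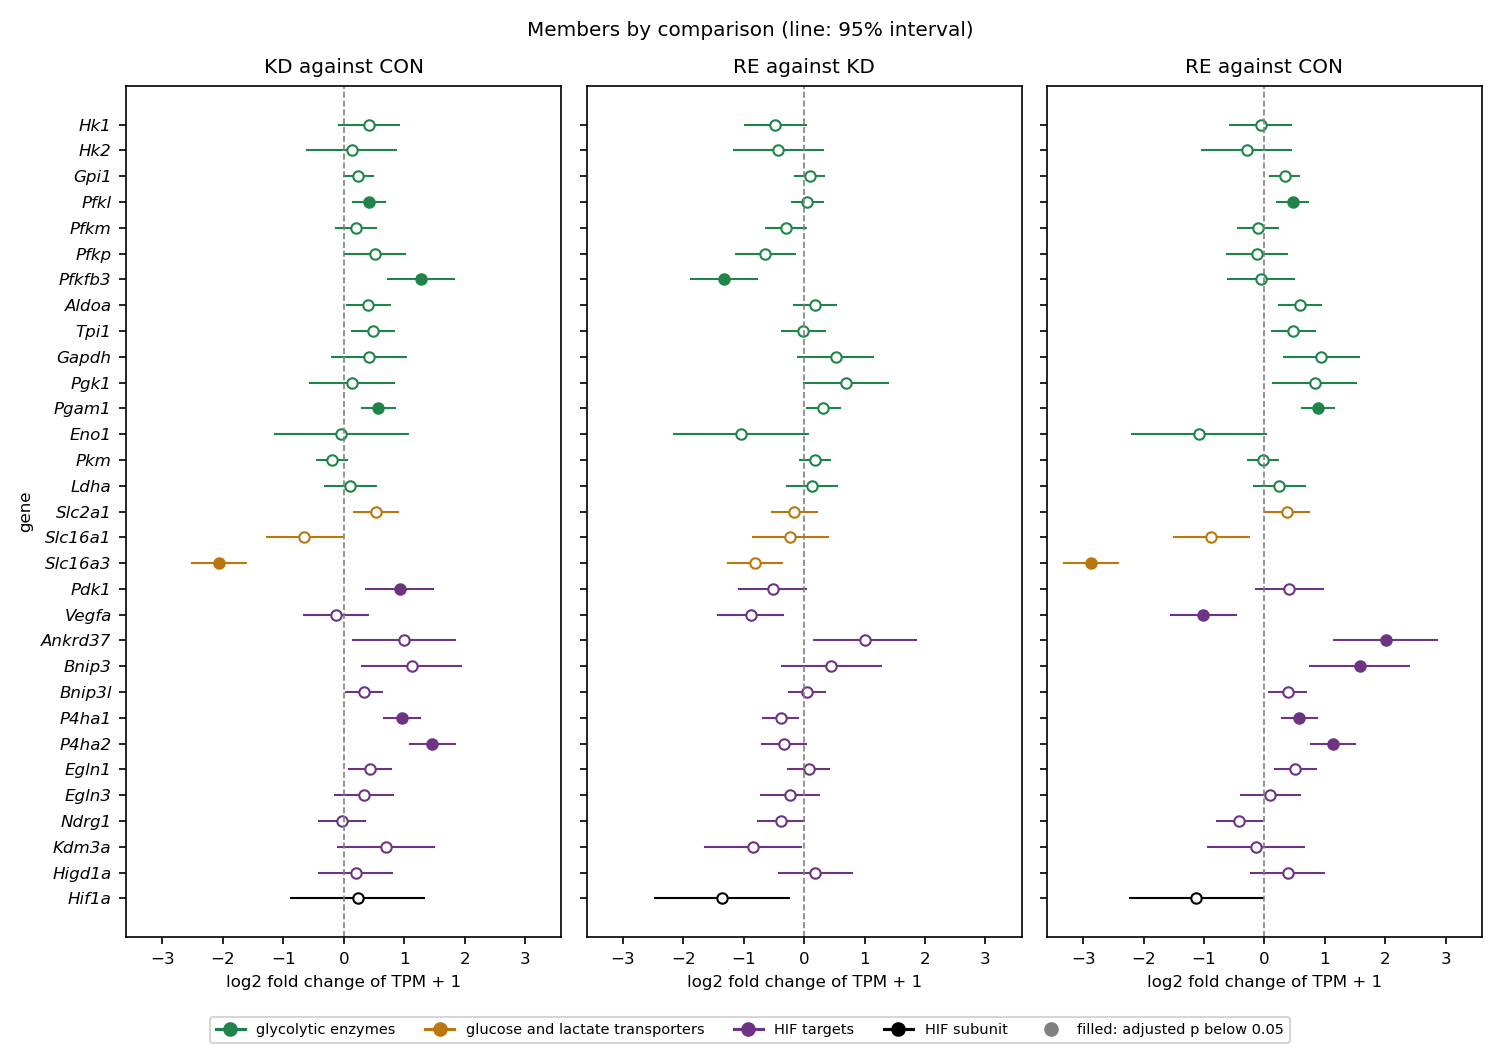
Log2 fold changes of TPM + 1 (horizontal axis) with 95% intervals for the 31 tested genes (vertical axis) in KD against CON, RE against KD and RE against CON, coloured by group of genes. Filled points have an adjusted p below 0.05: 7 genes in KD against CON, 1 in RE against KD and 8 in RE against CON.

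The promoters were searched for the letters of the HIF core. The RefSeq windows of 250 bases before each start (GRCm38.p6, the build of the mm10 files) matched 31 of the 34 genes, with 47 windows in all. The letters searched were ACGTG and GCGTG on both strands. ACGTG reads CACGT on the opposite strand, so CACGTG matches on both strands. A match was found in 37 of 47 member windows (78.7%), in 56.3% of 11425 windows of tested genes and in 38.6% of all 32851 windows. The share was 78.6% for the enzymes and 73.3% for the HIF targets. Among members changed in KD against CON 8 of 9 windows held a match, and among those not changed 26 of 35 did. All these shares were taken over the full windows of 250 bases, without trimming. A match is a description of these letters only. The windows of P4ha1, P4ha2, Pfkfb3 and Slc16a3 are printed because these genes kept their KD call in every alternative run. They run 5′ to 3′ on the gene's strand, trimmed where an annotated exon begins, with the matched letters of either strand in capitals. Pfkfb3 has a further window at its outermost start, which is not printed. The exon-free stretch of that window (chr2:11554078-11554179) held 0 matches, and its full 250 bases held 1. The start inside the gene was chosen for print after the matches were seen.
P4ha1 (chr10:59323046-59323295, plus strand): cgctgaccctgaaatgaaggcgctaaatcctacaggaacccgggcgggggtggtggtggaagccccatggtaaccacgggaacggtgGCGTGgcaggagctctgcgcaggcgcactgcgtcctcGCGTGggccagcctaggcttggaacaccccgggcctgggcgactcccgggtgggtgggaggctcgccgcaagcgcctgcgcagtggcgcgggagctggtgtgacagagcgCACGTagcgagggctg
P4ha2 (chr11:54100674-54100923, plus strand): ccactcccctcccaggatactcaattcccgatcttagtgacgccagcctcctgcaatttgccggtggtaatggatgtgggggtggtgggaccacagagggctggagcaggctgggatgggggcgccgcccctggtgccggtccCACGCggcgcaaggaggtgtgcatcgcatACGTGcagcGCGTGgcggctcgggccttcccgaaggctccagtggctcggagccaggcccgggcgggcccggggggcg
Pfkfb3, at a start inside the gene (chr2:11502102-11502340, minus strand): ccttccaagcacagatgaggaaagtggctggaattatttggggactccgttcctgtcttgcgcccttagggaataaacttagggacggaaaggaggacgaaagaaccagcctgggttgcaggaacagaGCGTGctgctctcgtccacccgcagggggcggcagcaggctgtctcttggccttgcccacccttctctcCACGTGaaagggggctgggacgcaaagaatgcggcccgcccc
Slc16a3 (chr11:120948817-120949052, plus strand): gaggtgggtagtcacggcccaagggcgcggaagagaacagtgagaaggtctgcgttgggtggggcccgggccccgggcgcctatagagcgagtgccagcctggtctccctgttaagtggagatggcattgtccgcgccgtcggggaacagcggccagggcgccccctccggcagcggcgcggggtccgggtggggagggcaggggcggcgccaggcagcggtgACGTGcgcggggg
The P4ha1 and P4ha2 stretches each held 1 ACGTG and 2 GCGTG matches. That of Pfkfb3 held 2 and 1, with CACGTG counted on both strands, and that of Slc16a3, the gene that fell, held 1 and 0. The full windows held the same counts for P4ha1, P4ha2 and this start of Pfkfb3, and 2 and 0 for Slc16a3. The starts of P4ha2, Pfkfb3 and Slc16a3 lie inside the span that GENCODE gives for the gene.

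Of the enzymes called in KD against CON, Pfkfb3 changed most. Pfkfb3 (chr2:11471433-11554077, minus strand) makes fructose 2,6-bisphosphate, the activator of phosphofructokinase. Its level was 15.2, 17.9, 16.8 and 15.4 TPM in CON 1 to 4, 57.5, 50.4, 27.0 and 35.3 in KD 1 to 4 and 11.2, 21.6, 14.1 and 17.1 in RE 1 to 4. Every KD library lay above every other library, and CON and RE overlapped. The means were 16.3 ± 1.26, 42.6 ± 13.9 and 16 ± 4.44 TPM (SD, n = 4 each). On the log2 scale Pfkfb3 rose in KD by 1.27 ± 0.25 (SE; adjusted p = 0.00619) and fell in RE against KD by 1.33 ± 0.25 (adjusted p = 0.0349). RE against CON gave -0.06, with a 95% interval of -0.60 to 0.49. The rise in KD kept an adjusted p below 0.05 when any 1 library was left out. The fall in RE against KD lost it when any library other than CON 4, KD 3 and RE 2 was left out (adjusted p 0.0575 to 0.157). It was lost in 16 of 24 alternatives, among them median-of-ratios scaling, quantile normalization and a correction for transcript length, with which the fall was smallest (-0.77, adjusted p = 0.0887).

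Phosphofructokinase, the committed step, is encoded by Pfkl, Pfkm and Pfkp. Pfkl (chr10:77986947-78010083, minus strand), the liver-type subunit, stood at 189, 173, 210.2 and 222 TPM in CON, 238, 266, 302 and 254 in KD and 274, 286, 254 and 283 in RE. All CON values of Pfkl lay below all KD and RE values. The log2 fold change was 0.42 ± 0.12 in KD against CON (adjusted p = 0.0442) and 0.47 ± 0.12 in RE against CON (adjusted p = 0.035). The first call was lost when any of the 12 libraries except CON 4 and RE 3 was left out (adjusted p 0.0521 to 0.141), and the second without CON 1, CON 2, CON 3, KD 2, KD 4, RE 1, RE 2 or RE 4 (0.0605 to 0.131). Pfkm, the muscle-type subunit, had 117, 110.4, 123 and 125 TPM in CON, 150, 144, 116 and 137 in KD and 83.7, 135, 122 and 107 in RE. Pfkp, the platelet-type subunit, had 80.9, 83.7, 94.6 and 62.3 TPM in CON, 131, 132, 93.9 and 105 TPM in KD and 56.7, 114, 58.0 and 74.9 TPM in RE. Both overlapped between groups and missed the threshold in each comparison of the main fit to all 12 libraries. Pfkp shares 748 exonic bases with Pitrm1 on the opposite strand (mean 42.3 TPM), and the strand setting of the counting is not known. The share of Pfkl in the summed phosphofructokinase TPM was 49.8 ± 3.07% in CON, 51.3 ± 5.63% in KD and 59.8 ± 5.26% in RE (SD, n = 4).

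Pgam1 (chr19:41911923-41918660, plus strand), phosphoglycerate mutase, had 729.6, 766, 810.4 and 1014 TPM in CON, 1168, 1178, 1320.3 and 1236 in KD and 1499.5, 1679, 1364 and 1565 in RE. The groups formed 3 separate ranges in the order CON, KD, RE. On the log2 scale Pgam1 rose in KD by 0.57 ± 0.12 (adjusted p = 0.011) and in RE against CON by 0.89 ± 0.12 (adjusted p = 0.000839). The step from KD to RE was 0.31 ± 0.12 (adjusted p = 0.154). Under median-of-ratios scaling of the libraries the KD call was lost (log2 fold change 0.55, adjusted p = 0.176).

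The other tested enzymes did not pass the threshold in any comparison of the main fit. Without CON 4, Aldoa and Gapdh were called higher in KD against CON (background 9.48%). In RE against CON Aldoa, Gapdh, Gpi1, Pgk1 and Tpi1 were then called higher (background 10.8%). With the correction for transcript length Hk1, Pfkp and Tpi1 were called higher in KD against CON (background 12.2%). The values below are those of the main fit. Hk1, the main hexokinase by TPM, ranged 117 to 204 in CON and 209 to 251 in KD (log2 fold change 0.41, adjusted p = 0.317). Hk2, the hexokinase most often named as a HIF target, ranged 12.3 to 35.6 and 21.4 to 32.9 TPM (0.13). Hk1 made up 87.0 ± 2.96% of their summed TPM in CON and 89.2 ± 1.23% in KD. Gpi1, glucose-6-phosphate isomerase, was at 144 to 171 TPM in CON and 176 to 194 in KD (0.24, adjusted p = 0.209). Aldoa, the main aldolase, was at 1540 to 2704 and 2413 to 2623 TPM (0.41, adjusted p = 0.146). Aldoc, the brain-type aldolase, stayed between 0.0877 and 0.768 TPM and was not tested. Tpi1, triosephosphate isomerase, was at 1349 to 1660 TPM in CON and 1917 to 2276 in KD (0.49, adjusted p = 0.0836). The KD values of Hk1, Gpi1 and Tpi1 lay above all their CON values, while those of Hk2 and Aldoa overlapped CON.

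Pkm, pyruvate kinase, and Ldha, the main lactate dehydrogenase subunit, close the route to lactate. Pkm stood at 1835, 1722, 2037 and 2268 TPM in CON and 1615, 1648, 1821 and 1747 in KD (-0.20, 95% interval -0.44 to 0.05). Ldha stood at 1883, 1767, 2028 and 1794 TPM in CON and 1834, 1981, 2264 and 1999.8 in KD (0.11, 95% interval -0.31 to 0.53). In RE, Ldha ranged 1380.3 to 2748 TPM, with RE 3 the lowest. Both genes overlapped between CON and KD. Pgk1, phosphoglycerate kinase, had 239, 253, 319 and 742 TPM in CON, 309, 328, 535 and 388 in KD and 631, 509.6, 770 and 579.9 in RE. CON 4 was above every KD library for Pgk1, and the log2 fold change of KD against CON was 0.14 (95% interval -0.55 to 0.83).

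The rows of Eno1 and Gapdh did not hold the whole signal of these genes. Eno1, enolase, had between 8.21e-05 and 6.76 TPM, while Eno1b, whose transcript is 99.5% identical over 85.6% of the length of that of Eno1, averaged 2124 TPM. Gapdh, glyceraldehyde-3-phosphate dehydrogenase, had 206 to 513 TPM in CON, 334 to 473 in KD and 421 to 807 in RE. Gm12070, a processed pseudogene that is 99.9% identical to Gapdh over 70.6% of its length, averaged 1972 TPM. How the authors' counting divided reads among such copies is not known here, so single rows of these genes are uncertain. With the copies summed, enolase had 1894 ± 119.6 TPM in CON, 2176 ± 311 in KD and 2306 ± 528 in RE, with a log2 fold change of 0.19 in KD against CON (adjusted p = 0.584). Summed Gapdh had 1878 ± 364 TPM in CON, 2542 ± 292 in KD and 2750 ± 214 in RE. Its log2 fold change was 0.45 in KD against CON (adjusted p = 0.0793) and 0.57 in RE against CON (adjusted p = 0.0417). Neither Eno1 nor Gapdh passed the threshold as a single row in the main fit.

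**Figure D2:**
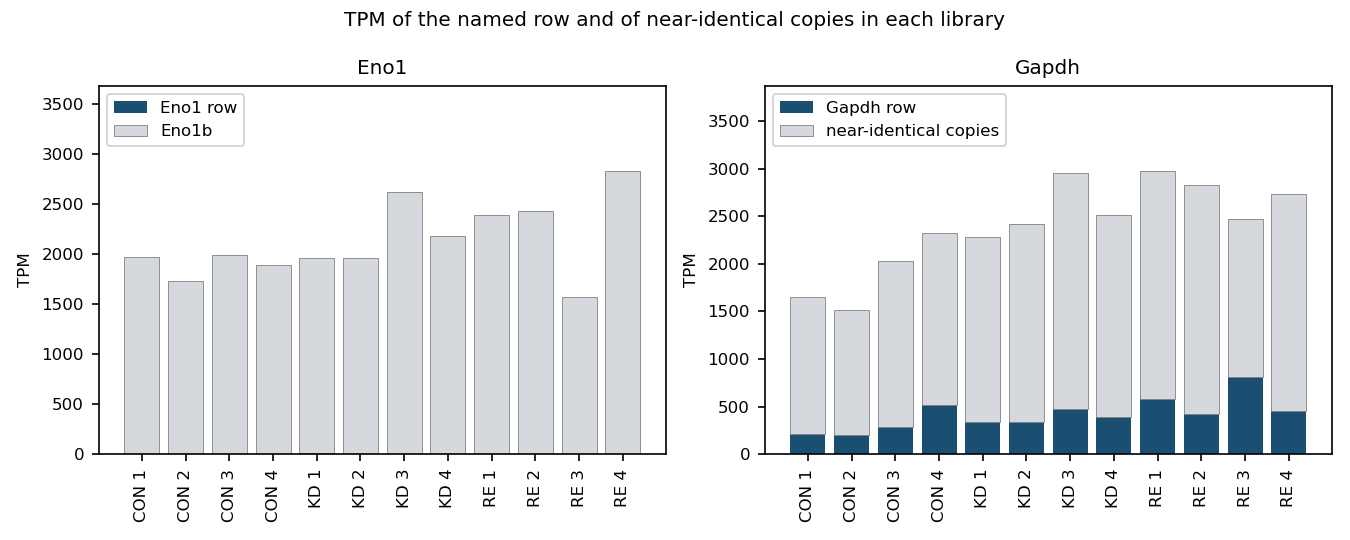
Stacked TPM of the Eno1 and Gapdh rows (dark) and of their near-identical copies in the table (light) in each of the 12 libraries. The dark Eno1 part is at most 6.76 TPM beside Eno1b at a mean of 2124 TPM, and the Gapdh row is the smaller part in all libraries.

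Among the transporters, Slc16a3 gave the greatest change of the 31 tested genes in both comparisons with CON. It encodes MCT4, a lactate exporter that is itself a known HIF target (chr11:120948480-120960868, plus strand). Its level was 60.7, 53.3, 61.6 and 99.8 TPM in CON, 16.1, 12.9, 16.6 and 15.7 in KD and 7.59, 7.28, 10.4 and 8.03 in RE. The 3 groups did not overlap, and RE lay below KD. On the log2 scale Slc16a3 fell by 2.06 ± 0.21 in KD against CON (adjusted p = 5.6e-05) and fell by 2.87 ± 0.21 in RE against CON (adjusted p = 3.15e-06). RE against KD gave -0.81 ± 0.21 (95% interval -1.27 to -0.36, adjusted p = 0.074). Both falls against CON kept their call when any 1 library was left out.

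Slc16a1 (chr3:104638668-104658462, plus strand) encodes MCT1, the transporter of the same family with a wider tissue range. It had 182, 201, 179 and 83.3 TPM in CON, 110, 111, 70.1 and 104 in KD and 61.8, 118, 78.1 and 82.3 in RE. CON 4 lay within the range of KD, and the other 3 CON libraries lay above it. The log2 fold change was -0.65 ± 0.28 in KD against CON (adjusted p = 0.183) and -0.88 ± 0.28 in RE against CON (adjusted p = 0.0926). Without CON 4, Slc16a1 was called lower in KD (-0.94, adjusted p = 0.0104, limma, background 11.0%) and in RE (-1.17, adjusted p = 0.00223, background 42.0%) against CON. KD against CON also called it lower under median-of-ratios scaling (adjusted p = 0.0371, background 5.79%) and the length correction (adjusted p = 0.00717, background 10.7%). RE against CON did not call it in those 2 runs. The summed TPM of both transporters was 230.2 ± 31.9 in CON, 114 ± 18.3 in KD and 93.3 ± 23.2 in RE. Slc16a3 made up 31.5 ± 15.5% of that sum in CON (54.5% in CON 4), 13.9 ± 3.72% in KD and 9.34 ± 2.64% in RE. Slc2a1, the glucose importer GLUT1, ranged 114 to 152 TPM in CON, 172 to 236 in KD and 144 to 229.7 in RE (0.53 ± 0.17 in KD against CON, adjusted p = 0.0678). Slc2a3, GLUT3, was listed at 0 in 10 libraries and under 0.1 TPM in the others, and was not tested.

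**Figure D3:**
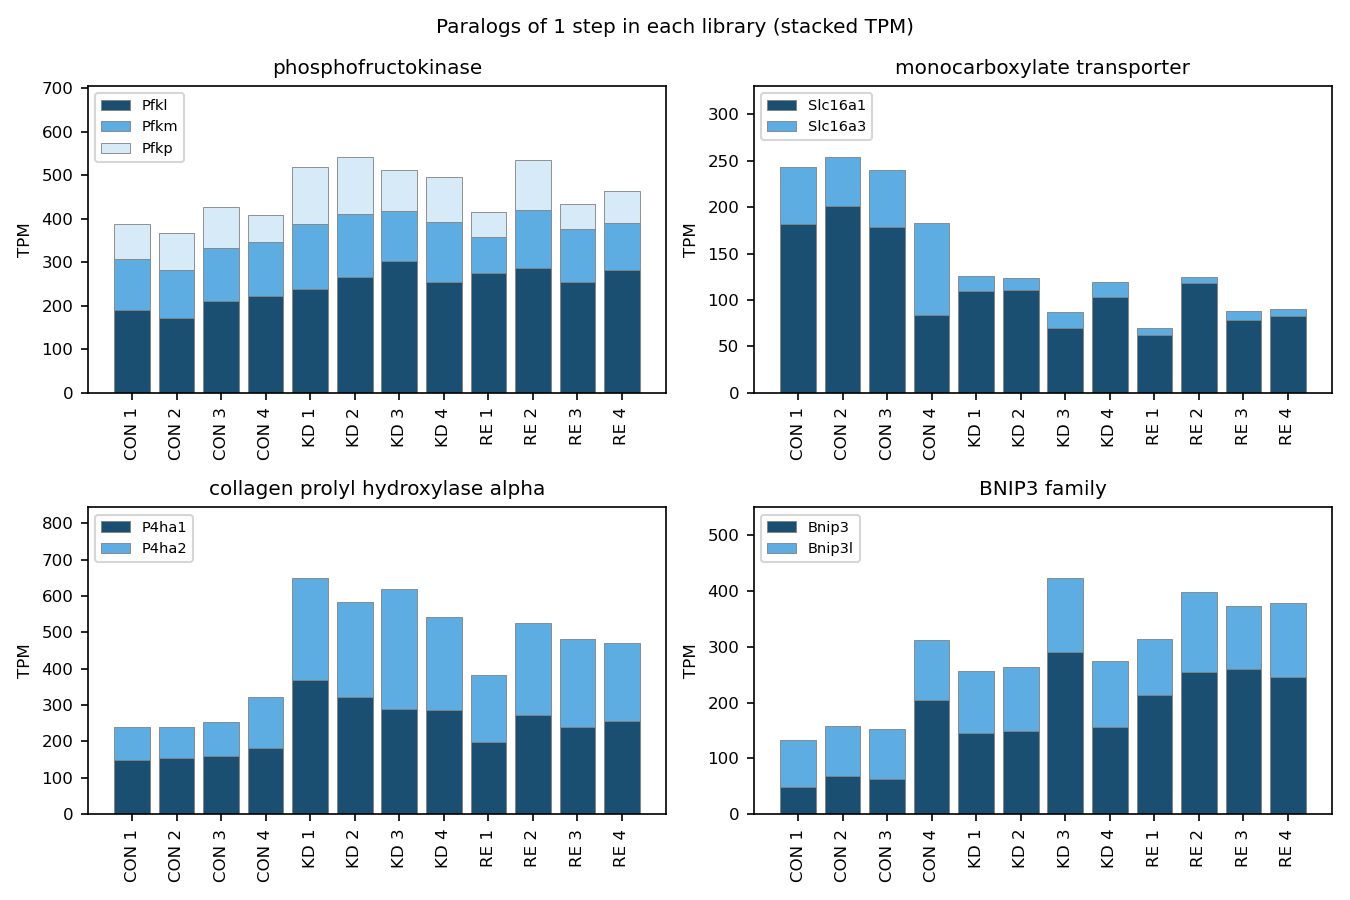
Stacked TPM of paralogs in each of the 12 libraries for phosphofructokinase, the monocarboxylate transporters Slc16a1 and Slc16a3, the collagen prolyl hydroxylase subunits P4ha1 and P4ha2, and the BNIP3 family. The transporter bars are shorter in KD and RE than in every CON library, and the prolyl hydroxylase bars are taller in KD than in CON.

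Of the 3 HIF targets called in KD against CON, 2 were the catalytic alpha subunits of collagen prolyl 4-hydroxylase, the enzyme that hydroxylates proline in procollagen. P4ha1 (chr10:59323296-59373304, plus strand) had 149, 155, 159 and 182 TPM in CON, 369.8, 321, 288 and 285 in KD and 199, 273, 239 and 256 in RE. Its groups formed separate ranges with RE between CON and KD. P4ha1 rose by 0.96 ± 0.13 on the log2 scale in KD (adjusted p = 0.000659) and by 0.58 ± 0.13 in RE against CON (adjusted p = 0.0228). RE against KD gave -0.39 ± 0.13 (95% interval -0.68 to -0.09, adjusted p = 0.133). The RE against CON call of P4ha1 was lost without CON 1, CON 2, CON 3, RE 2 or RE 4 (adjusted p 0.0586 to 0.0859).

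P4ha2 (chr11:54100095-54131665, plus strand) had 92.0, 84.8, 95.6 and 139 TPM in CON, 279, 262, 331 and 258 in KD and 184, 253, 244 and 215 in RE. Its KD and RE values lay above every CON value, and KD lay above RE. P4ha2 rose by 1.47 ± 0.17 in KD (adjusted p = 0.000158) and by 1.13 ± 0.17 in RE against CON (adjusted p = 0.00135). RE against KD gave -0.34 ± 0.17 (adjusted p = 0.198). Both rises of P4ha2 kept their call when any 1 library was left out. The share of P4ha2 in the summed TPM of the pair was 38.6 ± 3.40% in CON, 47.2 ± 4.55% in KD and 48.1 ± 1.95% in RE.

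Pdk1 (chr2:71873224-71903858, plus strand) encodes a kinase that inhibits pyruvate dehydrogenase and so holds pyruvate out of the mitochondrial oxidation route. It had 45.4, 45, 45.3 and 31.1 TPM in CON, 87.4, 97.1, 66.1 and 70.8 in KD and 37.9, 86.7, 41.6 and 66.5 in RE. All KD values of Pdk1 were above all CON values, and RE spread over both. Pdk1 rose by 0.93 ± 0.26 in KD (adjusted p = 0.0365), while RE against CON gave 0.41 (adjusted p = 0.27) and RE against KD -0.52 (adjusted p = 0.192). The KD call was lost when any CON or KD library other than CON 4 and KD 3 was left out (adjusted p 0.0692 to 0.121).

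In the main fit Vegfa, Ankrd37 and Bnip3 passed the threshold in RE against CON and not in KD against CON. The difference between those comparisons is the RE against KD comparison, in which none of them passed in that fit. Without CON 4, KD against CON called Ankrd37 higher (1.44, adjusted p = 0.00182, limma) and Bnip3 higher (1.57, adjusted p = 0.000621), with a background of 9.48%. Vegfa was not called there (-0.34, adjusted p = 0.268). With the correction for transcript length both Ankrd37 and Bnip3 were also called higher in KD (adjusted p = 0.0213 and 0.0497, background 12.2%). Vegfa (chr17:46016993-46032369, minus strand), the vascular growth factor, had 312, 289, 257 and 159 TPM in CON, 301, 249, 172 and 200.3 in KD and 95.9, 157, 104 and 142 in RE. CON and KD overlapped, and all RE values lay below all CON and KD values. Vegfa fell by 1.01 ± 0.25 in RE against CON (adjusted p = 0.0295), and RE against KD gave -0.88 (adjusted p = 0.0923). The call of Vegfa was lost without CON 1, CON 2, CON 3, RE 1 or RE 3 (0.0882 to 0.105). Its level in CON 4 was 159 TPM, close to that in RE 2.

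Ankrd37 (chr8:45996902-46005707, minus strand), a small ankyrin-repeat gene, had 2.77, 3.39, 2.42 and 12.3 TPM in CON, 10.1, 7.61, 11.5 and 8.91 in KD and 19.3, 17.4, 31.7 and 15 in RE. RE lay above all other libraries, and CON 4 lay above every KD library. Ankrd37 rose by 2.0 ± 0.39 in RE against CON (adjusted p = 0.0083), a call kept when any 1 library was left out, and KD against CON gave 1.00 ± 0.39 (adjusted p = 0.137). It shares 57 exonic bases with Ufsp2 on the opposite strand (mean 73.3 TPM), whose reads cannot be told apart without strand. Bnip3 (chr7:138890836-138909519, minus strand), a mitophagy receptor, had 48.7, 67.9, 62.2 and 205 TPM in CON, 145, 149.9, 291 and 156 in KD and 213, 255, 259 and 245 in RE. RE lay above all CON libraries, and CON 4 stood well above CON 1 to 3. Bnip3 rose by 1.58 ± 0.37 in RE against CON (adjusted p = 0.0255), and KD against CON gave 1.12 ± 0.37 (adjusted p = 0.0818). The RE call of Bnip3 was lost without CON 1, CON 2, CON 3, or any 1 RE library (0.0525 to 0.0913). Its relative Bnip3l, also a mitophagy receptor, had 85.0, 90.9, 90.9 and 107 TPM in CON, 112, 113, 132 and 117 in KD and 101, 142, 114 and 134 in RE, with no call in the main fit.

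**Figure D4:**
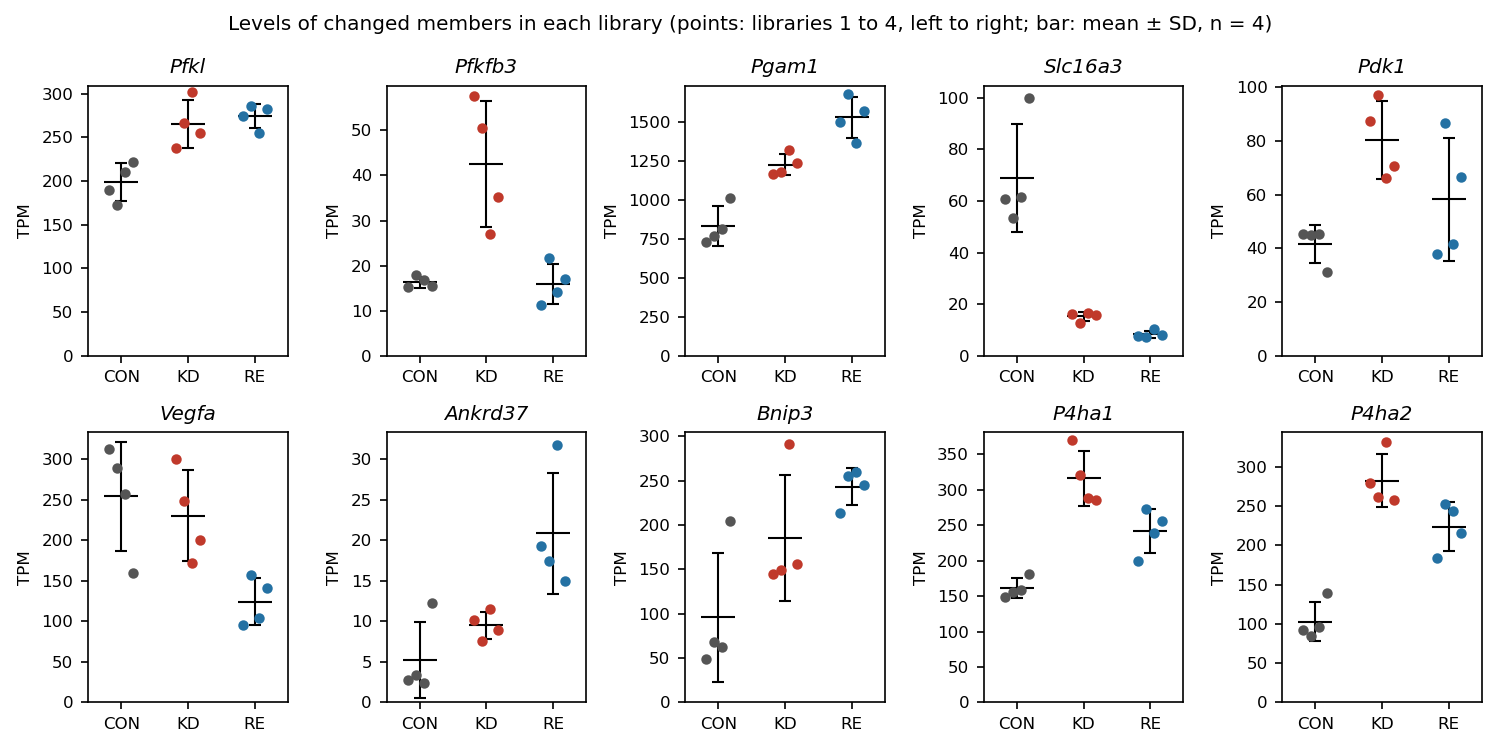
TPM (vertical axis) of the 10 genes that passed the threshold in at least 1 comparison, with 1 point per library and the mean ± SD (n = 4) of each group. KD stands highest for Pfkfb3, Pdk1, P4ha1 and P4ha2, RE for Pgam1, Ankrd37 and Bnip3, and CON for Slc16a3; CON 4 departs from CON 1 to 3 for Ankrd37 and Bnip3.

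The remaining HIF targets had no call in any comparison of the main fit. Without CON 4, Egln1 was called higher and Ndrg1 lower in RE against CON (background 10.8% and 42.0%). With the correction for transcript length Kdm3a was called higher in KD against CON (background 12.2%). Egln1 and Egln3, HIF prolyl hydroxylases whose own transcription rises in low oxygen, gave 0.44 ± 0.16 (adjusted p = 0.109) and 0.33 ± 0.22 (adjusted p = 0.427) in KD against CON. Egln1 was at 38.4 to 50.1 TPM in CON and 55.6 to 70.5 in KD, and Egln3 at 38.2 to 42.8 and 41.7 to 66.5. Only Egln1 of this pair had KD values above all CON values. Kdm3a, a histone H3 lysine 9 demethylase, was at 10.7 to 27.0 TPM in CON, 28.1 to 40.5 in KD and 8.71 to 30.0 in RE (0.70 in KD against CON). Ndrg1, a stress-responsive gene, was at 206 to 291 TPM in CON and 236 to 261 in KD (-0.03, 95% interval -0.41 to 0.34). Higd1a, a mitochondrial inner membrane protein, was at 9.18 to 18.2 and 11.2 to 24.8 TPM (0.20). Kdm3a in KD lay above CON, while Ndrg1 and Higd1a overlapped. Car9, carbonic anhydrase 9 and a common marker of hypoxic cells, was between 0.352 and 1.67 TPM and was not tested.

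Hif1a itself (chr12:73901375-73947530, plus strand) had 529.5, 519, 437 and 116 TPM in CON, 569, 590.2, 238 and 333 in KD and 101, 271, 102 and 218 in RE. CON 4, RE 1 and RE 3 were its lowest libraries, the same libraries in which long transcripts stood low. KD against CON gave 0.23 ± 0.51 (adjusted p = 0.871), RE against KD -1.36 ± 0.51 (adjusted p = 0.145) and RE against CON -1.13 ± 0.51 (adjusted p = 0.171). Without those 3 libraries Hif1a was called lower in RE against CON, where 24.0% of all tested genes were called lower.

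The enzymes and the HIF targets were then compared. In KD against CON, 3 of 15 tested enzymes and 3 of 12 tested HIF targets rose and none of either fell in limma's test. Slc16a3, a known HIF target that fell by 2.06 ± 0.21, was grouped with the transporters and so is in neither group. The counts, medians and means below therefore depend on that grouping, and the comparison was not made with Slc16a3 among the HIF targets. At an unadjusted p below 0.05 the counts were 7 enzymes and 7 HIF targets higher and 0 lower in each, where 13.6% of all tested genes were higher and 10.2% lower. By the adjusted test those shares were 6.60% and 3.61%. The median log2 fold change was 0.41 for the enzymes and 0.57 for the HIF targets. The mean log2 level of the 15 enzymes was 7.68 ± 0.07 in CON, 8.02 ± 0.10 in KD and 7.89 ± 0.15 in RE, and that of the 12 HIF targets was 5.80 ± 0.12, 6.41 ± 0.10 and 6.26 ± 0.22 (SD, n = 4). The enzyme mean minus the HIF target mean was 1.94, 1.82, 2.01 and 1.77 in CON 1 to 4. It was 1.66, 1.67, 1.5 and 1.62 in KD 1 to 4, and 1.71, 1.54, 1.65 and 1.59 in RE 1 to 4. All KD and RE values lay below all CON values, so the HIF target mean stood nearer to the enzyme mean in KD and RE, by 0.27 and 0.26 log2 units. Between KD and RE the difference was 0.01. Without the uncertain Eno1 row the enzyme mean minus the HIF target mean was 2.34 ± 0.12 in CON, 2.09 ± 0.09 in KD and 2.17 ± 0.08 in RE. KD then still lay below CON, while RE overlapped it. The median longest transcript was 2432 bases for the enzymes and 3074 for the HIF targets, against 3069 over tested genes.

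On the linear scale the order was different in RE. The summed TPM of the enzymes was 9603 ± 1349 in CON, 11382 ± 645 in KD and 12818 ± 1036 in RE, and with the copies of Eno1 and Gapdh it was 13068 ± 1624, 15715 ± 1177 and 17308 ± 1812. The summed TPM of the HIF targets was 1129 ± 31.4 in CON, 1631 ± 116 in KD and 1375 ± 198 in RE. The most abundant genes set such sums: Aldoa, Tpi1, Pgam1, Pkm and Ldha for the enzymes. No test was made on these sums.

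**Figure D5:**
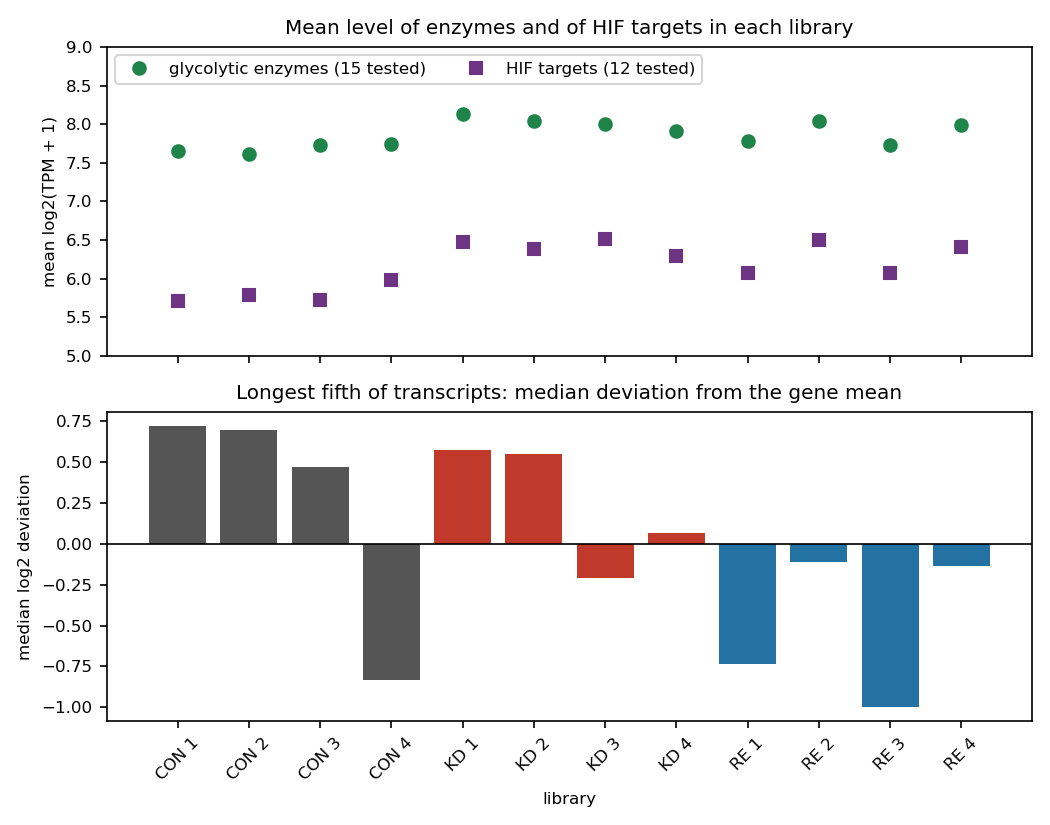
Upper panel, mean log2(TPM + 1) of the 15 tested enzymes (circles) and the 12 tested HIF targets (squares) in each library. Lower panel, median log2 deviation of the 2268 longest transcripts in the same libraries: HIF targets are higher in the 4 KD libraries than in the 4 CON libraries, and CON 4, RE 1 and RE 3 have the lowest bars.

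In RE against KD, 1 of 31 tested genes passed the threshold on the lower side, Pfkfb3 (background 0.858%), and 0 of 31 on the higher side (background 0.187%). At an unadjusted p below 0.05 limma's test gave 3 higher and 8 lower, against 6.36% and 21.6% of all tested genes, so the lower count is near the background. RE lay wholly above KD for 4 of 31 (background 3.47%) and wholly below for 5 (background 10.8%). The median log2 fold change was 0.05 for the enzymes, -0.29 for the HIF targets and -0.29 for all tested genes. Median-of-ratios scaling of the libraries moved the all-gene median by more than 0.1, to 0.00, and the medians became 0.38 for the enzymes and 0.04 for the HIF targets. Under that scaling 32 of all tested genes were called higher and 46 lower, against 22 and 101 on the TPM scale. Relative to the all-gene median, the HIF targets stood near it and the enzymes above it on the TPM and median-of-ratios scales, and not under quantile normalization. By means, the log2 fold change of the enzymes minus that of the HIF targets was 0.01, and -0.04 with the correction for transcript length. Quantile normalization put the enzymes at -0.02 and the HIF targets at -0.16, with the all-gene median at 0.01. Without CON 4, RE 1 and RE 3 the called gene was Slc16a3 in place of Pfkfb3, lower in RE (background then 0.289%). Without CON 4 alone 3 were called higher and 6 lower (background 3.85% and 19.9%), and without RE 2 alone 2 were called lower.

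In RE against CON, 6 of 31 tested genes were called higher (background 2.70%) and 2 lower (background 3.63%). The higher ones were Pfkl, Pgam1, Ankrd37, Bnip3, P4ha1 and P4ha2, and the lower ones Slc16a3 and Vegfa. Levels did not overlap for 7 on the higher side (background 4.46%) and 2 on the lower side (background 4.76%). By group, 2 of 15 enzymes rose and 4 of 12 HIF targets rose with 1 falling. The median log2 fold change was 0.25 for the enzymes, 0.40 for the HIF targets and -0.27 for all tested genes. Under median-of-ratios scaling the all-gene median was 0.01, the enzymes stood at 0.56 and the HIF targets at 0.70, and 595 of all genes were called higher and 500 lower against 318 and 427. Without CON 4, RE 1 and RE 3, 16 of 31 were called higher and 4 lower (background 8.13% and 24.0%), and without CON 4 alone 13 and 5 (background 10.8% and 42.0%). Leaving out CON 1, CON 2, CON 3, RE 2 or RE 4 left 3 called higher, and leaving out CON 1, CON 2, CON 3, RE 1 or RE 3 left 1 called lower. KD and RE are compared with the same 4 CON libraries, and both RE against KD and KD against CON use the KD libraries, so no agreement between comparisons was counted.

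Other genes of these routes are given as counts and at most 3 names per list. Their lists were chosen together with the members, with earlier results of these data known, so the background shares do not test them. Over all tested genes 6.60% were called higher and 3.61% lower in KD against CON, and 13.6% and 10.2% at an unadjusted p below 0.05. Of 13 tested genes of the other glycolysis and lactate list, 4 rose in KD against CON and 0 fell (7 and 1 at an unadjusted p below 0.05 in limma's test). Ldhb, the heart-type lactate dehydrogenase subunit, rose from 2.04 ± 0.617 to 14.9 ± 3.03 TPM (2.39 ± 0.23) and stood at 13.5 ± 3.38 TPM in RE. Galm, an aldose epimerase, rose by 1.10 ± 0.18 and Bpgm, bisphosphoglycerate mutase, by 0.82 ± 0.15. Of 13 genes of pyruvate entry into mitochondria 2 rose and 0 fell (3 and 1 unadjusted): Pcx, pyruvate carboxylase, by 1.87 ± 0.30 and Pdk3, a relative of Pdk1, by 0.64 ± 0.13. Of 11 glycogen genes 2 rose and 0 fell (4 and 0 unadjusted), Pgm2 by 0.57 ± 0.16 and Gys1, glycogen synthase, by 0.54 ± 0.14. None of the 11 pentose phosphate genes was called in limma's test (0 higher and 1 lower unadjusted), nor were the 2 tested gluconeogenesis genes (0 and 1).

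Of 11 tested genes of oxygen sensing, 2 rose in KD against CON and 0 fell (4 and 1 at an unadjusted p below 0.05 in limma's test). They were Arnt2, an alternative HIF partner (1.22 ± 0.26), and Os9, a lectin of endoplasmic reticulum quality control that was also linked to HIF1A turnover (0.89 ± 0.15). Of 38 tested genes of the second HIF target list, 10 rose and 0 fell (15 and 2 unadjusted), with a median log2 fold change of 0.41. The background for both lists was 6.60% of all tested genes called higher and 3.61% lower. At an unadjusted p below 0.05 in limma's test it was 13.6% and 10.2%. Stc1, a secreted glycoprotein, went from 247, 254, 301 and 289 TPM in CON to 2433, 2363, 893 and 1597 in KD and 179, 790.1, 570 and 266 in RE. Its rise in KD was 2.63 ± 0.43 (adjusted p = 0.00186) and its fall in RE against KD 2.14 ± 0.43 (adjusted p = 0.0397). Adm, the vasodilator peptide adrenomedullin, rose by 1.98 ± 0.36.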

How the data were processed

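RNA of HL-1 cells in the CON, KD and RE groups was extracted with TRIzol and sequenced, per the labels' protocols. The authors deposited 1 table of TPM values for 23184 gene symbols and 12 libraries. Trim Galore 0.6.6, TopHat2 2.1.1, Cufflinks 2.2.1 and the mm10 build are named in the submitters' processing notes; how they led to TPM, and the strand setting, are not given in the sources used here. All columns add up to 1000000, so the depth is unknown and no counting interval is given. A 0 can be a failed estimate.

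The 11774 genes whose mean reached 1 TPM were put on the log2(TPM + 1) scale, which makes changes of low genes look smaller. A model with group means was fitted to all 12 libraries with limma 3.58.1 (R 4.3.3; two-sided moderated test with a mean-variance trend). P-values were adjusted by the Benjamini-Hochberg method over all tested genes for each comparison, and a gene was called at an adjusted p below 0.05. Intervals are 95% intervals of that model. The fit was tested on simulated data.

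The members and lists were chosen with earlier results of these data known. Every member is named; those called in a comparison, with their paralogs, are given by library, and up to 3 called genes per other list are named by the size of their log2 fold change. One gene that this rule picks is not reported here. Gene positions are those of the GENCODE annotation of GRCm38, and a near-identical copy has at least 95% identity over at least 50% of the member's transcript. Alternatives were a replicate block, quantile normalization, median-of-ratios scaling, array weights, a fit to the compared groups alone, a loess correction for transcript length (span 0.5), a pseudocount of 0.1, a 5 TPM filter or none, and leaving out libraries. Summing near-identical copies and leaving out Eno1 were added after seeing the data.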

Additional observations from a re-analysis of the deposited data

Results flagged for a closer look

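In 10 of the 113 groups of 4 libraries checked, 1 library lay further from the rest than Dixon's 95% limit allows; chance alone gives about 1 in 20. CON 4 accounted for 5 of them and KD 3 for 3. In CON, Pgk1 had 742 TPM in library 4 and 239 to 320 in libraries 1 to 3. Ankrd37 had 12.3 TPM in CON 4 against 2.42 to 3.39, and Bnip3 had 205 TPM in CON 4 against 48.7 to 67.9. Pdk1 had 31.1 TPM in CON 4 against 45 to 45.4. Slc2a3 had 0.0765 TPM in CON 4 and 0.0625 TPM in KD 2, where the other libraries of each group were listed at 0. In KD 3, Bnip3 had 291 TPM against 145 to 156 in the other KD libraries, Higd1a had 24.8 TPM against 11.2 to 12.1, and Slc16a1 had 70.1 TPM against 104 to 110. Eno1 had 0.853 TPM in RE 4 against values from 8.52e-05 to 9.44e-05.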

How the results depend on the processing

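Of the calls in KD against CON, those of Pfkfb3, Slc16a3, P4ha1 and P4ha2 were kept under every alternative run, and in RE against CON those of Pgam1, Slc16a3, Ankrd37 and P4ha2. The cause of the changes below was not tested. The share of all tested genes called in the same direction under the same setting stands in brackets. The 6 members higher in KD against CON became 21 with array weights (22.2%), 15 without CON 4, RE 1 and RE 3 (14.2%), and 12 with the length correction (12.2%). Leaving out 1 library gave 4 to 10. The 1 member lower became 2 under median-of-ratios scaling (5.79%), quantile normalization (7.11%), array weights (32.5%), the length correction (10.7%) and without those 3 libraries (25.1%), and 1 to 2 with 1 library left out. In RE against KD, the 0 higher became 6 with array weights (11.6%) and 0 to 3 with 1 library left out. The 1 lower became 0 under median-of-ratios scaling (0.391%), quantile normalization (0.824%), the compared groups alone (0.331%) and the length correction (1.01%), 10 with array weights (33.5%), and 0 to 6 with 1 library left out, 6 being without CON 4 (19.9%). In RE against CON, the 6 higher became 10 under median-of-ratios scaling (5.05%), 10 under quantile normalization (5.71%), 3 with the compared groups alone (1.3%), 16 with array weights (12.2%), 16 without the 3 libraries (8.13%), 14 with the length correction (7.81%), and 3 to 13 with 1 library left out. The 2 lower became 1 with the compared groups alone (2.17%), 5 with array weights (42.0%), 4 without the 3 libraries (24.0%), and 1 to 5 with 1 library left out.

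The enzyme mean minus the HIF target mean kept its sign in KD against CON and in RE against CON under the alternatives run. None of these placed Slc16a3 among the HIF targets, so they do not cover that choice of grouping. Its log2 fold changes were -2.06 in KD against CON and -2.87 in RE against CON. The lowest among the tested HIF targets were -0.13 and -1.01. Counting Slc16a3 there would lower the HIF target mean and shrink the gap, and the sign was not checked with it included. In RE against CON the main -0.26 became -0.42 with a pseudocount of 0.1, -0.46 under quantile normalization and -0.36 without CON 4, RE 1 and RE 3, and was nearer to 0 with a filter of 5 TPM, which leaves out Eno1 (-0.17), and with near-identical copies summed (-0.19). In RE against KD the main 0.01 became -0.0899 with a pseudocount of 0.1 and -0.13 under quantile normalization, against 0.08 with the filter of 5 TPM. With 1 library left out it ranged from -0.31 to -0.23 in KD against CON, -0.02 to 0.04 in RE against KD and -0.30 to -0.22 in RE against CON. Hk1 in RE against CON turned from -0.06 to 0.40 with the length correction (adjusted p = 0.0301, limma). Over all genes the share of calls that were higher was 64.6% in KD against CON, 17.9% in RE against KD and 42.7% in RE against CON. It became 53.4%, 47.7% and 58.7% with the length correction, and 40.6%, 25.7% and 22.6% with array weights. Under median-of-ratios scaling it was 56.6%, 41.0% and 54.3%, and under quantile normalization 56.0%, 40.9% and 57.0%.

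Only KD and RE carry numbers in both labels and columns. The deviations of same-numbered libraries correlated at -0.55, 0.65, 0.24 and -0.25, and 1 of 4 pairs had its best correlation with its own number. These deviations were not corrected for transcript length, by which the libraries differ. The correlations therefore cannot show whether same-numbered libraries share a culture or batch, and the labels give only the number. With the replicate block 15 of all genes were called in RE against KD in place of 123, and 0 members in place of 1; with the replicate block and the length correction 31 genes and 0 members were called. Sequencing depth is unknown, so its limit on genes under 1 TPM, such as Aldoc, Slc2a3 and Car9, cannot be given.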

Other observations

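Some genes that work with the members were chosen after their values were seen. Bsg encodes basigin, the chaperone that carries the lactate transporters MCT1 and MCT4 to the cell surface. It had 1301, 1304, 1568 and 2415 TPM in CON, 2629, 2622, 3266 and 2659 in KD and 2620.4, 2709.7, 3523 and 2384 in RE, the opposite direction to Slc16a3. Bsg rose by 0.80 ± 0.20 in KD against CON on the log2 scale (adjusted p = 0.022, limma) and by 0.80 ± 0.20 in RE against CON (adjusted p = 0.0317). CON 4 lay between the other CON libraries and the KD libraries.

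Plod1 and Plod2, procollagen lysyl hydroxylases, and the lysyl oxidases Lox and Loxl2 are on the second HIF target list and were singled out after their values were seen, so no count over them is given as a result. In KD against CON the log2 fold changes were 0.93 ± 0.13 for Plod1 (adjusted p = 0.000677, limma), 0.92 ± 0.28 for Plod2 (adjusted p = 0.057), 0.99 ± 0.26 for Lox (adjusted p = 0.0313) and 1.39 ± 0.29 for Loxl2 (adjusted p = 0.00902). Plod2 missed the threshold. In RE against KD Plod1 fell by 0.62 ± 0.13 (adjusted p = 0.0479, limma), while Plod2, Lox and Loxl2 were not called. The fibrillar collagen chains in the fibroblast list had these values in KD against CON: Col1a1 gave -0.75 ± 0.19 (adjusted p = 0.0244), while the more abundant Col1a2 gave 0.19 ± 0.17 (adjusted p = 0.6) and Col3a1 -0.02 ± 0.22 (adjusted p = 0.982). RE against KD gave -1.05, -0.85 and -0.88 in that order (adjusted p = 0.0311, 0.0416 and 0.074, limma). RE against CON gave -1.80, -0.66 and -0.90 (adjusted p = 9.27e-05, 0.0404 and 0.0321, limma).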
